A study of Spermophilus dauricus with 30 samples.

Results

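RNA of skeletal muscle from Daurian ground squirrels (*Spermophilus dauricus*), taken after the end of hibernation (POST), was compared with that of animals in an interbout arousal (IBA), the short return to normal body temperature between torpor bouts. Libraries came from 2 muscles, 3 per state and muscle: SOL, commonly short for the soleus, a slow postural muscle, and EDL, commonly short for the extensor digitorum longus, a fast one. The SOL and EDL counts of the same state and number were added, which gave 3 POST sums against 3 IBA sums from 12 of the 30 libraries of the series. The other 18 libraries come from summer active (SA), pre-hibernation (PRE) and hibernating (HIB) animals and form 9 further sums. The labels give the genotype of every sample as WT and the same treatment word for all 5 states, so the state was taken from the sample titles. The labels say nothing of age, sex or the animal behind a library. P-values therefore measure the spread between these samples, which may be technical.

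Hibernators spend the cold season in torpor bouts with a strongly lowered metabolic rate and body temperature, and rewarm at intervals for short arousals. Their limb muscles are known for keeping much of their mass and function through months of inactivity. An aroused animal between bouts and an animal after the season are both warm, but the first will return to torpor and the second will not. Season, time since the last torpor bout and any other difference between the states go with this. The comparison cannot tell them apart.

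The table holds counts for 27394 identifiers, of which 26378 are plain numbers and 1016 carry a text prefix. Gene names are not part of the table, so results are given as groups of identifiers and for 4 identifiers by number, and the labelled tissue was not checked against marker genes. In bulk muscle RNA, fewer cells of a type and less RNA per cell cannot be told apart. The 6 sums held between 67833830 and 81137569 counts, and SOL supplied 47.8% to 50.8% of them. After a filter on low counts, 17306 identifiers were tested, 16351 of them plain numbers and 955 with the prefix.

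The POST sums differed more from each other than the IBA sums did, and POST number 3 lay on the side of IBA. The distance between 2 sums was taken as the root mean square difference in log2 CPM (counts scaled to the size of the library) over the 17306 identifiers. It ran from 0.671 to 0.795 between the IBA sums and from 0.809 to 0.88 between the POST sums. POST number 3 stood 0.671, 0.727 and 0.775 from IBA numbers 1, 2 and 3, but 0.88 and 0.831 from POST numbers 1 and 2. In contrast, POST number 1 stood 0.883 to 0.92 from the IBA sums and POST number 2 stood 0.779 to 0.849 from them. Among the 10525 identifiers with a mean of at least 5 CPM, the median coefficient of variation over the 3 sums was 0.194 in POST and 0.136 in IBA, against 0.111 to 0.127 in the other 3 states.

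**Figure D1:**
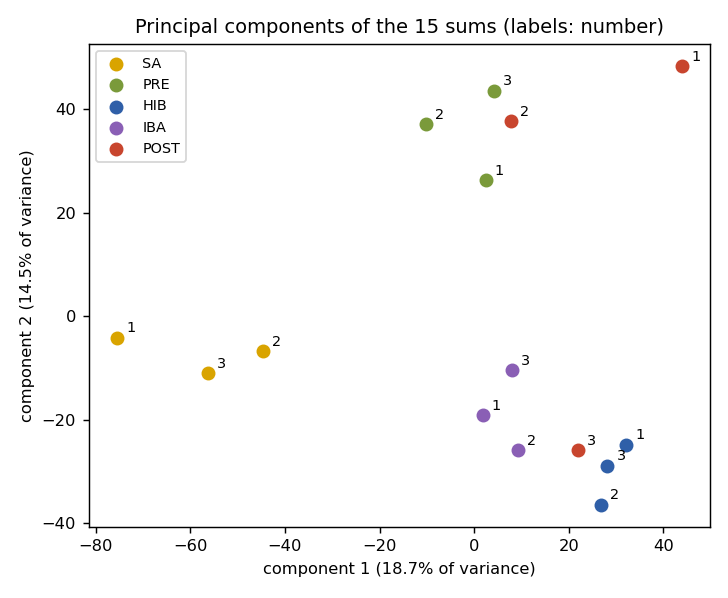
Principal components of log2 CPM of the 15 sums of SOL and EDL, with component 1 (18.7% of the variance) across and component 2 (14.5%) upwards; each point is a sum, coloured by state and labelled with its number. POST numbers 1 and 2 lie at 48.4 and 37.7 on component 2, beside the PRE sums (26.3 to 43.6), while POST number 3 lies at -25.8, beside the IBA (-25.9 to -10.4) and HIB (-36.4 to -24.8) sums. On component 1, POST numbers 1, 2 and 3 lie at 44, 7.7 and 22. There PRE lies at -10.2 to 4.11, IBA at 1.79 to 9.38 and HIB at 26.9 to 32.1, so POST number 1 is apart from PRE.

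The pattern was not the same in the muscles. In SOL, the library of POST number 1 stood 1.17 to 1.21 from the IBA libraries and 1.11 and 1.25 from the other POST libraries. POST number 3 stood 0.72 to 0.824 from the IBA libraries in SOL, nearer than to POST number 2 at 0.927. In EDL all distances between POST and IBA libraries lay between 0.764 and 0.911, and those among POST libraries between 0.824 and 0.838. There POST number 3 stood 0.764, 0.803 and 0.829 from IBA numbers 1, 2 and 3. From POST numbers 1 and 2 it stood 0.83 and 0.824, so its lean towards IBA was present in EDL too, but smaller. Results are therefore given with all sums and also without POST number 1 and without POST number 3.

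No identifier passed between POST and IBA with all 6 sums. edgeR's quasi-likelihood test with Benjamini-Hochberg adjustment called 0 of 17306 at a threshold of 0.05 (0%), and the smallest adjusted p was 0.188. At an unadjusted p under 0.05 there were 2178 identifiers (12.6%), 1101 higher in POST (6.36%) and 1077 lower (6.22%). DESeq2's Wald test on the same sums called 239 of 23087 (1.04%), 121 higher (0.524%) and 118 lower (0.511%), and in 222 of these the POST and IBA sums did not overlap. It gave no adjusted p to 5413 of the 23087. DESeq2's percentages, here and below, are over all identifiers with a count and not over the set edgeR tested. The POST and IBA sums did not overlap for 13.7% of all tested identifiers, with POST above IBA in 6.52% and below in 7.19%.

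Most differences were small and evenly split in direction. The log2 fold change of POST over IBA had a median of 0.01 over all identifiers and ran from -0.26 to 0.25 between its quartiles. Between the 5th and the 95th percentile it ran from -0.82 to 0.78. Among the identifiers at an unadjusted p under 0.05, the median was 0.55 for those higher in POST and -0.67 for those lower. More than 2-fold differences in this group numbered 251 towards POST and 260 towards IBA.

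**Figure D2:**
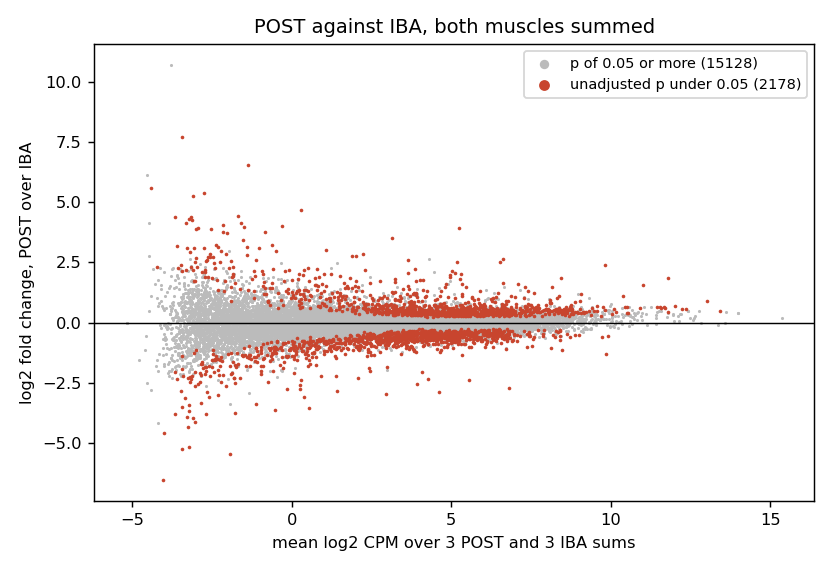
Log2 fold change of POST over IBA (vertical) against mean log2 CPM over the 6 sums (horizontal) for 17306 identifiers; red points have an unadjusted p under 0.05 in edgeR. The 2178 red points lie on both sides of 0, with 1101 above and 1077 below.

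With all sums, the direction changed with the level of the identifier. The level classes use a mean that includes the POST sums, and they were not repeated without single sums. TMM scaling factors were 0.798, 0.903 and 1.18 in POST numbers 1, 2 and 3, against 1.06 to 1.08 in the IBA sums. Whether the scaling bears on the classes was not tested. Of 3555 identifiers with a mean under 1 CPM over all 15 sums, 7.23% had an unadjusted p under 0.05, 108 higher and 149 lower in POST. Of 7035 identifiers between 10 and 100 CPM it was 15.4%, with 542 higher and 543 lower. Between 100 and 1000 CPM, 201 were higher and 62 lower among 1490, and over 1000 CPM 23 were higher and 3 lower among 105. The median log2 fold change was -0.06 in the lowest of these classes and 0.34 in the highest.

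The 50 identifiers with the most counts, chosen by their mean over all 15 sums, make up the top of that class. In POST 46 of the 50 stood higher than in IBA. The log2 fold change of the 50 had a median of 0.41 and a range from -0.09 to 1.86. Unadjusted p-values under 0.05 were found for 13 of the 50 (26%), all higher in POST, where 6.36% of all identifiers were higher at that threshold, and the smallest adjusted p was 0.271. All POST sums lay above all IBA sums for only 1 of the 50 (2%), against 6.52% of all identifiers. They lay below for 0, against 7.19%. The higher level of the 50 was thus not shared by all POST sums. The share of all counts held by the 50 was 35.0% in POST number 1, 33.9% in number 2 and 24.8% in number 3, against 28.3%, 30.4% and 26.1% in the IBA sums. POST thus stood both above and below IBA, and the means, 31.2% ± 5.63 and 28.3% ± 2.11 (SD, n = 3 each), did not differ beyond this spread (exact permutation p = 0.4, two-sided, where 3 against 3 cannot go below 0.1). The median of the 50 against the IBA mean was 0.76 and 0.56 on the log2 scale in POST numbers 1 and 2 and -0.31 in number 3. Both libraries of number 3 took part, with a share of 22.4% in SOL and 27.0% in EDL, each the lowest of all POST and IBA libraries of its muscle. Without POST number 1 the median fold change was 0.20, and without number 3 it was 0.64.

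The rule for identifiers to be named asked for a call with all sums and without POST number 1, which 0 met. The 4 given by number were chosen after their values were seen. They have the smallest p-values in each direction among the 167 higher and 185 lower identifiers with at least 5 CPM whose POST and IBA libraries did not overlap in SOL nor in EDL.

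Identifier 101974241 stood at 24.5, 23.8 and 16.2 CPM in POST sums 1, 2 and 3, and at 7.14, 11.7 and 8.99 CPM in the IBA sums. The lowest POST sum, number 3, lay above the highest IBA sum. The log2 fold change was 1.21 ± 0.22 (SE, edgeR adjusted p = 0.223). Across the year, HIB held 19.4 ± 4.09 CPM, PRE 18.6 ± 1.78 and SA 11.8 ± 2.16 (SD, n = 3 each), so IBA at 9.28 ± 2.3 lay near SA, and POST at 21.5 ± 4.57 near PRE and HIB.

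Identifier 101968170 was lowest in IBA of all 5 states. Its POST sums held 33.2, 28.1 and 25.3 CPM and its IBA sums 15.7, 17.0 and 19.4 CPM. Every IBA sum lay below every sum of the other states, the lowest of which was 25.1 CPM in HIB number 2. The fold change of POST over IBA was 0.74 ± 0.14 on the log2 scale (SE, edgeR adjusted p = 0.223). The means in SA, PRE and HIB were 29.6 ± 4.06, 30.9 ± 1.9 and 27.6 ± 2.15 CPM (SD, n = 3 each), near the 28.9 ± 4.01 of POST.

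Lower in POST stood identifier 101977295, at 14.4, 15.8 and 18.6 CPM in the POST sums and 29.4, 31.0 and 42.8 CPM in the IBA sums. The gap between the groups was wider in SOL, where the POST libraries held 8.31, 12.8 and 19.5 CPM and the IBA libraries 30.7, 33.8 and 52.7 CPM. In EDL the POST libraries lay between 17.9 and 19.6 CPM and the IBA libraries between 27.6 and 31.5 CPM. The log2 fold change of the sums was -1.08 ± 0.17 (SE, edgeR adjusted p = 0.188). SA and HIB, at 26.8 ± 3.42 and 27.9 ± 3.73 CPM, lay on the side of IBA, and PRE, at 18.5 ± 1.09 CPM (SD, n = 3 each), on that of POST.

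Identifier 101960830 stood at 8.26, 7.86 and 11.7 CPM in the POST sums and at 18.6, 17.6 and 20.4 CPM in the IBA sums. Its log2 fold change was -1.02 ± 0.17 (SE, edgeR adjusted p = 0.188). POST held its lowest level of the year, since the lowest sum of any other state was 13.3 CPM, in PRE number 3. The highest level was that of SA, at 27.4 ± 2.28 CPM (SD, n = 3). In PRE this identifier lay 0.89 ± 0.17 below SA on the log2 scale (SE, edgeR adjusted p = 0.0201). That contrast compares other sums than POST against IBA but comes from the same fit. Without POST number 3 all 4 identifiers passed, with adjusted p-values of 0.0148 to 0.0256 in edgeR, and without POST number 1 none did, at 0.657 each. DESeq2 with all sums called all 4, with adjusted p-values from 8.03e-05 to 0.00268.

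**Figure D3:**
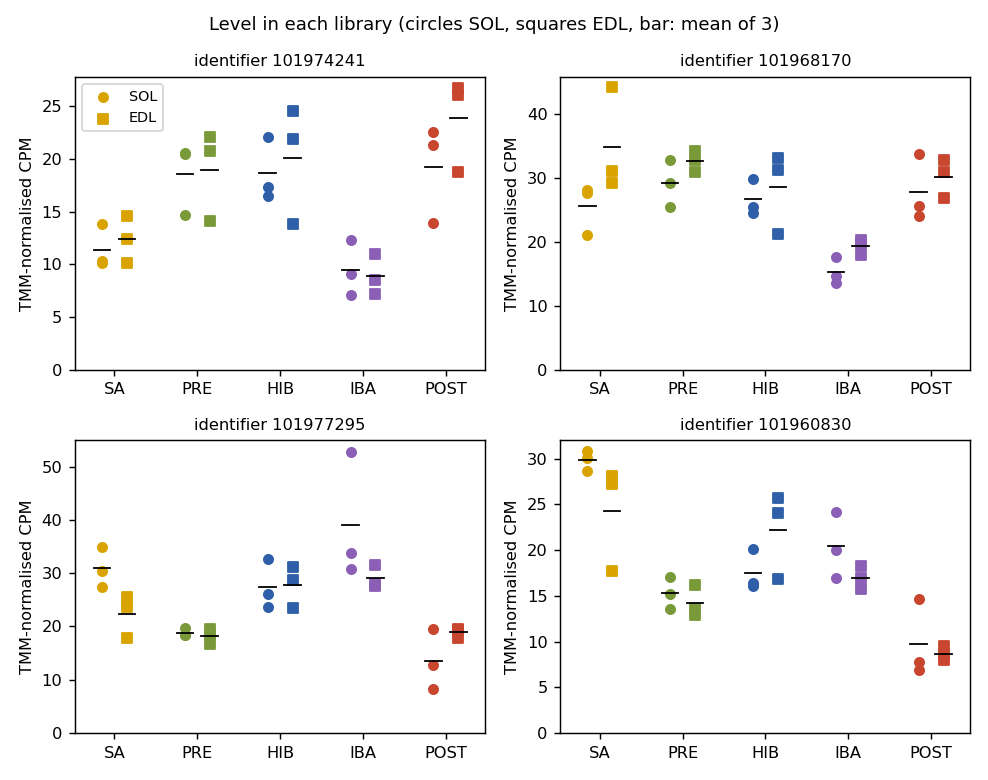
TMM-normalised CPM (vertical, from 0) of the 4 identifiers in each of the 30 libraries by state (horizontal), with circles for SOL, squares for EDL and a bar at the mean of 3. In each panel the POST and IBA libraries of a muscle do not overlap, and identifier 101968170 has its lowest means in IBA.

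Leaving out 1 sum at a time showed how far the outcome rests on POST number 3. Without it, 512 of 17553 identifiers were called by edgeR (2.92%), 361 higher in POST (2.06%) and 151 lower (0.86%), and 3585 (20.4%) had an unadjusted p under 0.05. DESeq2 then called 1629 of 23006 (7.08%). Without POST number 1, edgeR called 0 of 17577 (0%), the unadjusted p was under 0.05 for 1222 (6.95%), and DESeq2 called 22 of 22812 (0.0964%). Of the 2178 identifiers at an unadjusted p under 0.05 with all sums, 963 also had one without POST number 1 and 1844 without POST number 3. Without POST number 2 or any 1 IBA sum, 0 were called by edgeR and 1680 to 2093 had an unadjusted p under 0.05.

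**Figure D4:**
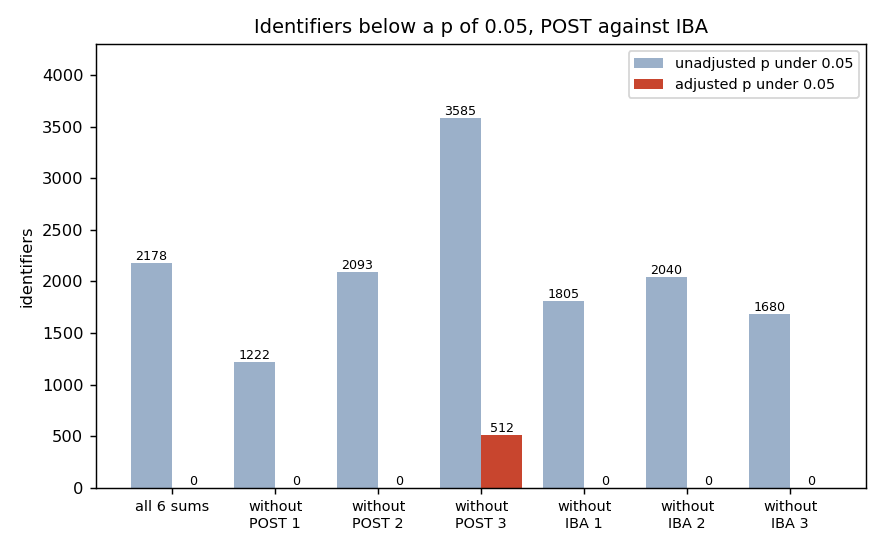
Number of identifiers (vertical) with an unadjusted p (blue) and an adjusted p (red) under 0.05 in edgeR's test of POST against IBA, with all 6 sums and with 1 sum left out. Calls appear only without POST number 3 (512), and the count at an unadjusted p under 0.05 is lowest without POST number 1 (1222).

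The identifiers called without POST number 3 were then read in that sum, which had no part in calling them. The 361 higher ones stood a median of 0.77 above the IBA mean on the log2 scale in POST numbers 1 and 2, but 0.01 above it in number 3. There, 127 lay above all 3 IBA sums, 110 within their range and 124 below them. Over all 17306 identifiers, POST number 3 lay above all IBA sums for 26.3%, within their range for 46.9% and below them for 26.7%. The 151 lower ones stood a median of -0.98 from the IBA mean in numbers 1 and 2 and -0.27 in number 3, where 90 lay below all IBA sums, 48 within their range and 13 above. The same IBA sums were used to call these identifiers, which by itself can put number 3 on the called side, so no direction is read from these counts.

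In total, 569 of the 17306 identifiers had an unadjusted p under 0.05 with all sums and in each of the 6 repeats that leave out 1 sum. POST was higher for 266 of them (median log2 fold change 0.63, 78 over 2-fold) and lower for 303 (median -0.79, 104 over 2-fold). Their levels in SA, PRE and HIB are given as a description. These states were not compared in choosing them, but shared the filter, the scaling and the estimate of spread. For the 303 lower in POST, the SA mean was nearer to IBA than to POST in 256, the HIB mean in 199 and the PRE mean in 126. In the set of 266 higher in POST, SA was nearer to IBA in 201, HIB in 125 and PRE in 121. Such counts were not taken over all identifiers, so they are not read as a trait of these sets. In log2 CPM, the median level of the higher set was 4.86 in POST and 4.18 in IBA, beside 4.41 in HIB, 4.68 in PRE and 4.41 in SA. That of the lower set was 3.29 in POST and 4.23 in IBA, beside 3.93 in HIB, 3.72 in PRE and 4.26 in SA.

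Identifiers that differed between PRE and SA were followed into POST and IBA. No library is shared between these comparisons, but they come from the same fit. They share the filter, the scaling and the estimate of spread. A call between PRE and SA favours a small estimated spread, which by itself can raise the share at an unadjusted p under 0.05. The shares at that threshold are therefore not independent of the calls between PRE and SA. Between PRE and SA, 594 of 17306 were called by edgeR (3.43%), 227 higher in PRE (1.31%) and 367 lower (2.12%), a count that ran from 38 (without PRE number 3) to 417 (without SA number 2) when 1 PRE or SA sum was left out. Of the 367 lower in PRE than SA, 332 (90.5%) also stood lower in POST than IBA, where 49.3% of all identifiers did. Their median log2 fold change was -0.41, against 0.01 over all identifiers. An unadjusted p under 0.05 towards lower in POST was found for 136 of them, which is 37.1% of the list and 12.6% of the 1077 identifiers at that threshold, and for 4 (1.09% of the list) towards higher. Over all identifiers the shares were 6.22% lower and 6.36% higher. The 227 higher in PRE than SA showed the opposite, with 174 (76.7%) higher in POST and a median of 0.18. Of these, 49 had an unadjusted p under 0.05 towards higher in POST (21.6% of the list, against 6.36% of all identifiers) and 6 towards lower (2.64%, against 6.22%).

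The same held without the POST sums that stood apart, to a smaller or larger extent. For the list lower in PRE the median was -0.33 without POST number 1, with 85.0% of it lower in POST, and -0.52 without number 3, with 92.4% lower. For the list higher in PRE the medians were 0.14 and 0.23. Without POST number 3, 27 of the list lower in PRE were called lower in POST and 0 higher, and 17 of the list higher in PRE were called higher and 0 lower. In that fit, 2.06% of all identifiers were called higher and 0.86% lower.

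The mean log2 CPM of the 227 identifiers minus that of the 367 served as a score. It was 2.70, 2.38 and 2.07 in POST sums 1, 2 and 3, and 1.66, 1.80 and 1.87 in the IBA sums. All POST sums lay above all IBA sums, with means of 2.38 ± 0.311 and 1.78 ± 0.108 (SD, n = 3 each) and an exact permutation p of 0.1, two-sided, the smallest that 3 against 3 allows. The SA and PRE sums, which defined the lists, scored 0.52 to 0.811 and 2.73 to 2.95, and the HIB sums 2.0 to 2.15. IBA thus lay nearest to summer of the 4 other states, POST numbers 1 and 2 lay between HIB and PRE, and POST number 3 within the range of HIB.

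The score was also taken in each muscle. In EDL the POST libraries 1, 2 and 3 scored 2.32, 2.86 and 2.77 and the IBA libraries 1.85, 1.78 and 1.96 (exact permutation p = 0.1, two-sided, again the smallest possible). In SOL the POST libraries scored 3.37, 2.0 and 1.43 and the IBA libraries 1.48, 1.80 and 1.74, so POST number 1 lay far above IBA and number 3 below it (exact permutation p = 0.5, two-sided). The difference of the means was 0.594 in SOL and 0.786 in EDL, with an SD over the POST libraries of 1.0 and 0.287, and whether the muscles differ in it was not tested. The low place of POST number 3 among the sums was therefore that of its SOL library, and the high place of number 1 also that of its SOL library. In the fits of each muscle, the list lower in PRE had a median log2 fold change of -0.35 in SOL and -0.57 in EDL, with 82.5% and 91.4% of it lower in POST. The list higher in PRE had medians of 0.08 and 0.29. In SOL the mean log2 CPM of the list lower in PRE was 1.86, 3.01 and 3.26 in POST libraries 1, 2 and 3. The IBA libraries held 3.43, 3.16 and 3.21, so POST number 3 lay within their range and number 1 far below it. The SOL fit of the list was not repeated without number 1.

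**Figure D5:**
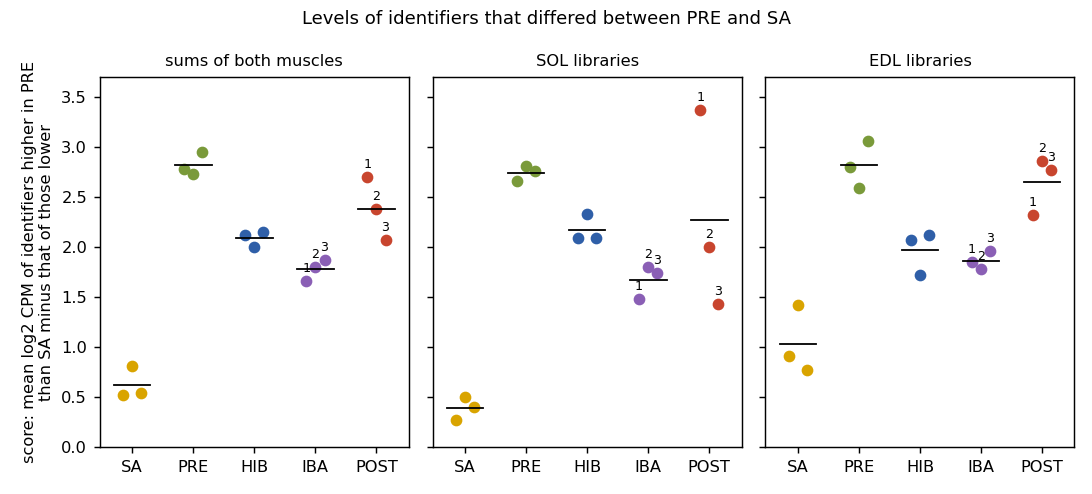
Score (vertical, log2 units) of the identifiers higher in PRE than SA minus those lower, in the 15 sums (left), the SOL libraries (middle) and the EDL libraries (right), by state (horizontal); bars mark the mean of 3 and small digits the number of the POST and IBA samples. In EDL the POST libraries (2.32 to 2.86) lie above the IBA libraries (1.78 to 1.96), while in SOL the POST libraries spread from 1.43 to 3.37, around the IBA libraries.

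Hibernation itself was read in the same way, with the same limit from the shared fit. Between HIB and SA, 1388 identifiers were called by edgeR (8.02%), 729 higher in HIB (4.21%) and 659 lower (3.81%), and 340 (without SA number 3) to 985 (without SA number 2) with 1 HIB or SA sum left out. Between POST and IBA, the median log2 fold change of those lower in HIB was -0.22, with 69.3% lower in POST. For those higher in HIB it was 0.08, with 62.4% higher in POST, against 50.7% of all identifiers. Without POST number 3 this median was 0.02, with 52.3% higher, where all identifiers had a median of -0.03 with 47.5% higher, and POST number 2 alone stood at -0.05 from the IBA mean. Between HIB and PRE, 121 were called (0.699%), and 1 (without PRE number 2) to 21 (without PRE number 3) with 1 sum left out. The 53 higher in HIB than PRE (0.306%) had a median of -0.38, with 44 (83.0%, against 49.3% of all identifiers) lower in POST than IBA and 20 (37.7%, against 6.22%) at an unadjusted p under 0.05 in that direction. For the 68 lower in HIB than PRE (0.393%), the median was 0.04, with 39 (57.4%) higher in POST. The identifiers raised in torpor over the pre-hibernation level therefore mostly stood lower after hibernation than in arousal. Those lowered in torpor below the pre-hibernation level were split. Both lists rest on the PRE sums that also defined the lists of PRE against SA, so they are not a separate reading.

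Across all 17306 identifiers, the fold changes of POST over IBA correlated at r = 0.24 (Spearman 0.33) with those of PRE over SA and at -0.17 (Spearman -0.18) with those of HIB over PRE. With HIB over SA the correlation was 0.06 (Spearman 0.15). Without POST number 1 the r values were 0.16, -0.11 and 0.04 in the same order, and without POST number 3 they were 0.27, -0.23 and 0.03. The identifiers share libraries and are not independent, so these are descriptions.

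The muscles were also compared on their own. In SOL, edgeR called 0 of 16443 identifiers (0%) and DESeq2 61 of 22106. Unadjusted p-values from edgeR were under 0.05 for 1303 in SOL (7.92%), 689 higher in POST (4.19%) and 614 lower (3.73%). In EDL, edgeR called 0 of 16299 (0%) and DESeq2 508 of 22350. There 2548 had an unadjusted edgeR p under 0.05 (15.6%), 1255 higher in POST (7.7%) and 1293 lower (7.93%). Spread differed between the muscles, as the median coefficient of variation of the POST libraries was 0.275 in SOL and 0.179 in EDL, against 0.139 and 0.153 in IBA. Of 16007 identifiers tested in both, 246 had an unadjusted p under 0.05 towards higher in both, 210 towards lower in both and 7 in opposite directions. Same-numbered SOL and EDL libraries deviated together, so these counts are not independent between the muscles. All POST libraries lay above all IBA libraries in both muscles for 218 identifiers (1.26%), below them in both for 264 (1.53%), and in opposite directions for 19 (0.11%).

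Whether POST against IBA differed between SOL and EDL was tested as an interaction. Neither edgeR (0 of 16946, 0%) nor DESeq2 (0) made a call. Unadjusted p-values under 0.05 numbered 457 in edgeR (2.7%) when the pairing of SOL with EDL was ignored. With SOL and EDL of a number paired as a block the calls were 0 again, and 1227 (7.24%) had an unadjusted p under 0.05. Without POST number 3, edgeR called 118 of 16686 in SOL and 3 of 16571 in EDL, and without POST number 1 it called 0 in either.

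Of the 955 identifiers with the text prefix that were tested, 69 had an unadjusted p under 0.05 towards higher in POST (7.23%) and 37 towards lower (3.87%), against 6.36% and 6.22% of all identifiers. The median log2 fold change was 0.08. Without POST number 1 that median was 0.01, with 34 and 24. Without POST number 3, 19 of the 955 were called higher and 0 lower. Over all 17553 identifiers of that fit, 361 (2.06%) were called higher and 151 (0.86%) lower. The share of prefixed identifiers called higher was thus no larger than that of all. No identifier had at least 10 counts in every sum of one state and 0 in all sums of the other. With at most 3 counts allowed in each sum of the other state, there were 5 for POST and 6 for IBA.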

How the data were processed

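The authors deposited raw counts, whole numbers per identifier and library, with 1 column for each of 30 libraries. The kits were AG RNAex for the RNA and NEBNext Ultra for the libraries, per the labels' protocols. HISAT2 2.0.4 and HTSeq 0.9.1 were used, per the submitters' processing notes. Genome build, annotation and strand setting: not given in the sources used here. Values of overlapping or antisense genes and of genes with near-identical copies are therefore uncertain.

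SOL and EDL counts of the same state and number were summed. The 15 sums were fitted together in R 4.3.3 with edgeR 4.0.16, so that 5 states shared 1 estimate of the spread with 10 residual degrees of freedom. filterByExpr with a minimum count of 10, TMM normalisation, the quasi-likelihood F test and Benjamini-Hochberg adjustment over all identifiers were used, with a threshold of 0.05. The standard error is the log2 fold change divided by the square root of F. Log2 CPM has a prior count of 2. Single-muscle fits used 15 libraries and the difference between muscles 30. No 2 replicate sums were identical, and their chi-square was 116 to 427 times its degrees of freedom.

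Deviations from the group mean correlated between SOL and EDL of the same number at 0.46 to 0.59 in IBA and 0.13 to 0.4 in POST. The numbers were therefore taken to pair the muscles, as read from the data. For POST number 1 this is weak (0.13). Correlations between SOL and EDL libraries of different numbers were not computed, so the pairing has no such comparison beside it. Same-numbered IBA and POST sums correlated at -0.08 to -0.04, so the numbers do not pair the states.

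Identifiers to be named were to pass with all sums and without POST number 1, to have at least 5 CPM and not to overlap between POST and IBA in either muscle, the 2 largest changes in each direction being taken. As 0 passed, the smallest p-values were used, without the threshold. Gene lists by symbol were not used, as no symbols were given. The comparison, the rule and the lists were chosen with earlier results of these data known. Except at low counts, the precision is set by the spread between sums and not by counting error. Alternatives tried were DESeq2's size factors, no filter, DESeq2 1.42.0, replicate blocks, the compared samples alone, equal library weights, 1 fit of the 30 libraries and the removal of each sample in turn.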

Additional observations from a re-analysis of the deposited data

How the results depend on the processing

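For POST against IBA in the sums, edgeR's count of 0 stayed at 0 with DESeq2's size factors, without the filter, with only the POST and IBA sums and with libraries scaled to the same size before the sum. It was 239 with DESeq2's Wald test and 1 with a replicate block across states, although the numbers do not pair the states. In a fit of 30 libraries that takes the mean of both muscles it was 512, 266 higher and 246 lower, with SOL and EDL of 1 number counted as separate samples although they deviate together. Leaving out 1 sum gave 0 to 512, the highest without POST number 3. Without POST number 1 the count was 22 with DESeq2 and 2, both lower in POST, with only the POST and IBA sums. For single muscles DESeq2 called 61 in SOL and 508 in EDL, and leaving out 1 library gave 0 to 118 and 0 to 3. The difference between the muscles stayed at 0 in each setting run, the replicate block within states included. The count for HIB against SA, 1388, was 2838 with DESeq2 and 340 to 985 without 1 sum. The count for PRE against SA, 594, was 1803 with DESeq2, 383 without the filter, 247 with the replicate block, 130 with only the PRE and SA sums and 38 to 417 without 1 sum. That for HIB against PRE, 121, was 1181, 111, 38, 411 and 1 to 21 in the same order. Settings for these lists, and those of the repeat without POST number 1, were chosen after seeing the data. The lists were kept as called with all sums. Their medians of POST against IBA kept their sign in the 13 alternatives, from -0.52 to -0.33 for those lower and 0.13 to 0.23 for those higher in PRE than SA, except those lower in HIB than PRE, from -0.06 to 0.14. For those higher in HIB than SA the median ran from 0.02 to 0.14 around 0.08. The direction of the named identifiers was all but fixed by choosing them for no overlap, and over the settings their log2 fold changes were 1.05 to 1.41 for 101974241, 0.62 to 0.82 for 101968170, -1.19 to -0.89 for 101977295 and -1.23 to -0.92 for 101960830, with adjusted p-values from 8.03e-05 to 0.657. Why the counts moved was not tested, and a fit with fewer sums has less power.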
